A study of Mus musculus with 7 samples.

Results

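The genes described here are 8 markers of pericytes: Rgs5, Kcnj8, Abcc9, Ndufa4l2, Cspg4, Mcam, Des and Notch3. They were chosen by name, and all 8 were found in both count tables, among 24394 gene names in the first and 13236 in the second, all of which also stood in the first. Their counts come from 3' end mRNA sequencing of 7 libraries of cells sorted from the mammary gland of female BALB/c mice, 1 library per group. In the first table, pCAF and sCAF are the podoplanin-positive and podoplanin-negative cancer-associated fibroblasts of tumours grown from 4T1-luc cells, and NMF is the stroma of the fat pad of untreated mice, all 3 sorted as Ter119-, CD45- and EpCAM-. In the second table, cells of tumours grown from 4T1-GFP cells, sorted as Ter119- and CD45-, were split into GFP- EpCAM-, GFP- EpCAM+, GFP+ EpCAM- and GFP+ EpCAM+ libraries. 4T1 is a mouse mammary carcinoma line. The tumour-bearing mice were injected in the fat pad at 8 weeks of age with 100000 cells and were 12 weeks old at harvest, 4 weeks later, while the NMF mice were 8 weeks old. The tumours and the fat pad were digested with different collagenases, and the number of mice behind a library is not given. The labels give no sort for pericytes, so these genes were read in mixtures of stromal or tumour cells, where fewer cells of a type and less RNA per cell cannot be told apart.

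Pericytes are the contractile cells that wrap capillaries and small vessels, share a basement membrane with the endothelium and help set vessel calibre and stability. Endothelial PDGF-B recruits them through the receptor encoded by Pdgfrb, and Notch ligands on the endothelium act on the NOTCH3 receptor of mural cells, the family that joins pericytes and vascular smooth muscle. Rgs5 encodes a regulator that shortens G protein signalling, Kcnj8 and Abcc9 the pore and the regulatory subunit of the vascular ATP-sensitive potassium channel, Ndufa4l2 a mitochondrial protein induced under hypoxia, Cspg4 the NG2 proteoglycan, Mcam the adhesion protein CD146, and Des the intermediate filament protein desmin. None of these is private to pericytes: Mcam is also an endothelial gene, Des a gene of striated and smooth muscle, and Cspg4 a gene of glial precursors.

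The libraries held between 436051 counts (pCAF) and 2590144 counts (sCAF). Levels are given as normalised CPM, counts over a library size scaled by the trimmed mean of M-values (TMM) within each table, so no level is compared between the tables. Because each group is 1 library, no difference has a replicate check and no p-value is given. The 95% intervals are exact and cover counting error only. A gene with at least 20 counts over both libraries was called higher or lower when the whole interval of its ratio lay beyond 2-fold. Where a library had 0 counts the ratio was taken at 3 counts, which is 7.48 CPM in pCAF, 1.13 in sCAF, 2.44 in NMF, 2.33 in GFP- EpCAM-, 1.84 in GFP- EpCAM+, 1.44 in GFP+ EpCAM- and 1.21 in GFP+ EpCAM+. Such a ratio is given as a bound, with the words at least. Its call used the limit of the interval, which is less extreme than the bound. The library labelled sCAF went against its label: all 10 fibroblast markers were called lower in it than in NMF, with summed levels of 248.7 CPM in sCAF and 42131 CPM in NMF, and 6 of the 9 epithelial markers with enough counts were called higher and 1 lower. Among the 10 is Pdpn, the gene of podoplanin. Because sCAF was sorted as podoplanin-negative, the sort itself favours that call. The library is named below by its label, and pCAF was also set against NMF with scaling factors that leave sCAF out.

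On the GRCm38 assembly, which mm10 names, all 8 are annotated as protein coding. Rgs5 (chr1:169655501-169695813) and Des (chr1:75360329-75368579) lie on the plus strand of chromosome 1, and Cspg4 (chr9:56865033-56899870) and Mcam (chr9:44134469-44142727) on the plus strand of chromosome 9. Kcnj8 (chr6:142564837-142571614) and Abcc9 (chr6:142587862-142702315) are neighbours on the minus strand of chromosome 6, 16247 bases apart with no annotated gene between them. Ndufa4l2 (chr10:127514967-127517154) lies on the plus strand and Notch3 (chr17:32120820-32166852) on the minus strand. The 3' end of Ndufa4l2 overlaps that of Shmt2, on the opposite strand, by 32 bases. The GFP+ EpCAM- library held 450 Shmt2 counts and the GFP+ EpCAM+ library 551, beside 1 Ndufa4l2 count in each. Exons of Des overlap those of the antisense gene Gm15179 over 220 bases, the nearest of them 148 bases from the 3' end of Des, and Gm15179 had 0 counts in pCAF, sCAF and NMF.

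RefSeq promoter windows (GRCm38.p6, 250 bases before to 50 bases after the annotated start) were matched for 7 of the 8 genes, all except Ndufa4l2. Those of Rgs5 and of the neighbouring channel genes Kcnj8 and Abcc9 are shown because Rgs5 was the one gene of the 8 with no counts in pCAF, and because the channel genes encode subunits of 1 channel and lie side by side. The capitals mark TGGGAA, the core letters bound by RBPJ, the DNA-binding partner of Notch. They run 5' to 3' on the strand of each gene, Rgs5 at chr1:169655251-169655550, Kcnj8 at chr6:142571565-142571864 and Abcc9 at chr6:142702225-142702524.
Rgs5: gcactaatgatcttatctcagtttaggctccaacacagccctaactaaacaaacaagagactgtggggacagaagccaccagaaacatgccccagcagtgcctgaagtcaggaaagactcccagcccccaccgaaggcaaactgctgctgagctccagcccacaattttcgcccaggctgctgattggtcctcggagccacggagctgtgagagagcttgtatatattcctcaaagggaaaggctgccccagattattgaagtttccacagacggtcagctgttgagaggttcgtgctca
Kcnj8: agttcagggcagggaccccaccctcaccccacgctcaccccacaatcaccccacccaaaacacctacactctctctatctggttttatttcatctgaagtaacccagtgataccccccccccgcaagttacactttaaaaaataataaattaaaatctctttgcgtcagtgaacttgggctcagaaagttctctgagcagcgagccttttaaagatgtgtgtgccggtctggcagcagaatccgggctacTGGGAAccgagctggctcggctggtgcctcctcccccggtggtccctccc
Abcc9: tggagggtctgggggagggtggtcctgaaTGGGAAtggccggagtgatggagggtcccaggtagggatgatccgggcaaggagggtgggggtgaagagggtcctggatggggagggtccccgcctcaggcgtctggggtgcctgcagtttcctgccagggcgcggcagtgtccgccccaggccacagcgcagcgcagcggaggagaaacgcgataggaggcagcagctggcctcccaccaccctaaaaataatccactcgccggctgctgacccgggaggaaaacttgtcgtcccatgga
Searched on both strands, TGGGAA stood in 2 of the 7 windows, against 25.56% of 32851 windows of that length. It covers the first 6 transcribed bases of Kcnj8 and begins at base 30 of the Abcc9 window. ACGTG, the core of the hypoxia response element, stood in 1 of the 7, that of Notch3, against 19.62% of all windows. The CArG box of muscle genes stood in 0 of the 7, against 1.629% of all windows. Such matches are letters in a window and were not measured as binding sites.

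In the second table all 8 genes were highest in GFP- EpCAM-, the tumour stroma sorted as CD45-. Rgs5 stood at 1137 CPM in GFP- EpCAM-, 10.4 in GFP- EpCAM+, 4.81 in GFP+ EpCAM- and 1.61 in GFP+ EpCAM+. Des stood at 775, 6.12, 1.44 and 0.403 CPM in the same libraries. Ndufa4l2, at 350, 1.22, 0.481 and 0.403 CPM, rested on 451 counts in GFP- EpCAM- and on 2, 1 and 1 in the others. The channel genes were near the floor outside the stroma, Kcnj8 at 186, 0, 1.44 and 0.403 CPM and Abcc9 at 138, 2.45, 0 and 0 CPM. Cspg4 stood at 86.2, 3.06, 1.44 and 0 CPM. Mcam stood at 816 CPM and Notch3 at 688 CPM in GFP- EpCAM-, and both stood above the floor in every other library, given below. The interval of each of the 8 genes in GFP- EpCAM- lay above its intervals in the other 3 libraries. How many of all genes do so was not counted. Together the 8 genes took 0.402% (0.391 to 0.412) of the counts in GFP- EpCAM-, against 0.00996% (0.00852 to 0.0116) in GFP- EpCAM+, 0.00353% (0.00275 to 0.00446) in GFP+ EpCAM- and 0.00377% (0.00304 to 0.00464) in GFP+ EpCAM+ (exact Clopper-Pearson intervals).

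**Figure D1:**
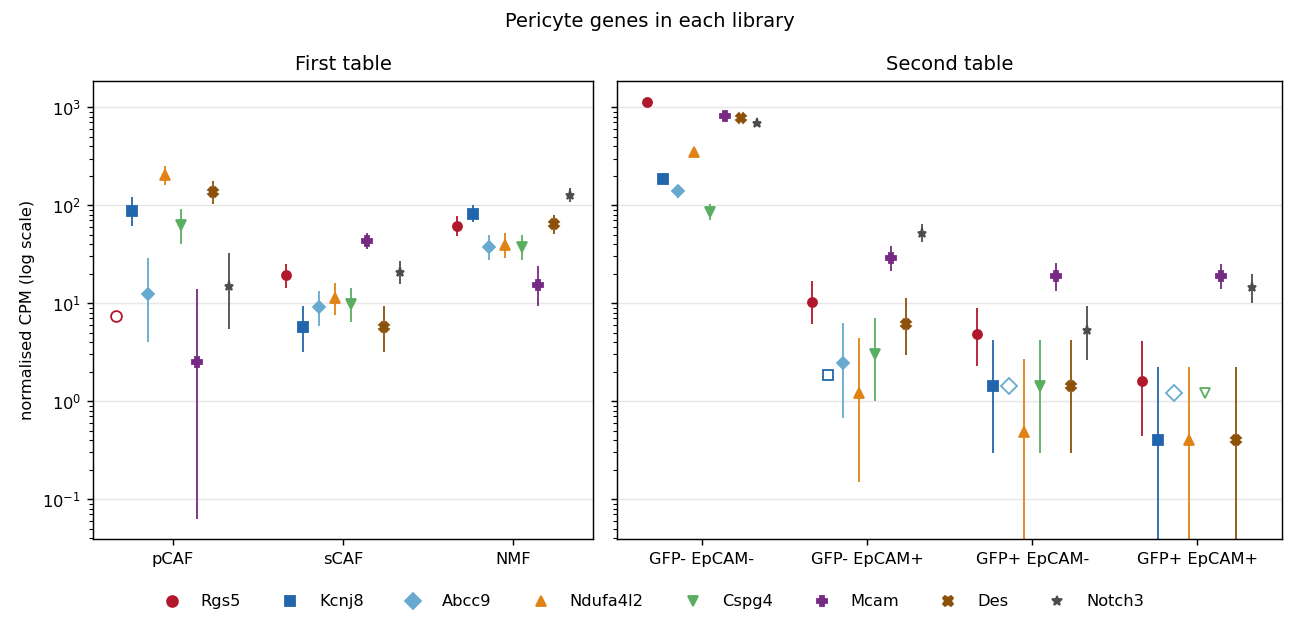
Level of each pericyte gene in each library, in normalised CPM on a log axis, with the first table on the left and the second on the right; bars are exact 95% counting intervals of 1 library, and open symbols mark genes at 0 counts, drawn at the level of 3 counts. All 8 genes are highest in GFP- EpCAM- within the second table, while in the first table Rgs5, Mcam and Notch3 sit low in pCAF and Ndufa4l2, Des, Kcnj8 and Cspg4 sit low in sCAF.

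Relative to GFP+ EpCAM-, the tumour cells without the epithelial marker, all 8 genes were called higher in GFP- EpCAM-. Over all 9551 genes with enough counts 14.1% were called higher and 5.55% lower, and the median log2 ratio was 7.02 for the 8 genes and -0.03 for all. The signalling regulator Rgs5 was 237-fold higher (128 to 494), and the channel genes Kcnj8 and Abcc9 were 129-fold (43.7 to 632) and at least 95.9-fold (interval limit 77.2) higher. Des was 537-fold higher (183 to 2610), Ndufa4l2 729-fold (130.2 to 28863) and Notch3 130.1-fold (72.3 to 262). The smallest ratios were those of the surface genes Cspg4, at 59.8 (19.9 to 294), and Mcam, at 43.5 (31.6 to 61.6).

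The 8 genes were also called higher in GFP- EpCAM- than in both EpCAM+ libraries, which share the GFP- EpCAM- library with the comparison above. Against GFP- EpCAM+ the median log2 ratio of the 8 was 6.24 and that of all 9518 genes was -0.03, with 12.7% of genes called higher and 7.33% lower. Against GFP+ EpCAM+ the medians were 7.85 and -0.05 over 9748 genes, with 14.9% called higher and 6.4% lower. Notch3 had the smallest ratio against GFP- EpCAM+, 13.1 (10.5 to 16.5), and Mcam the smallest against GFP+ EpCAM+, 43.1 (32.2 to 59.0). Rgs5 was 109-fold higher (68.0 to 188) than in GFP- EpCAM+ and 705-fold higher (275 to 2592) than in GFP+ EpCAM+. Kcnj8, at 0 counts in GFP- EpCAM+, was at least 102-fold (interval limit 82.0) higher in GFP- EpCAM-.

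**Figure D2:**
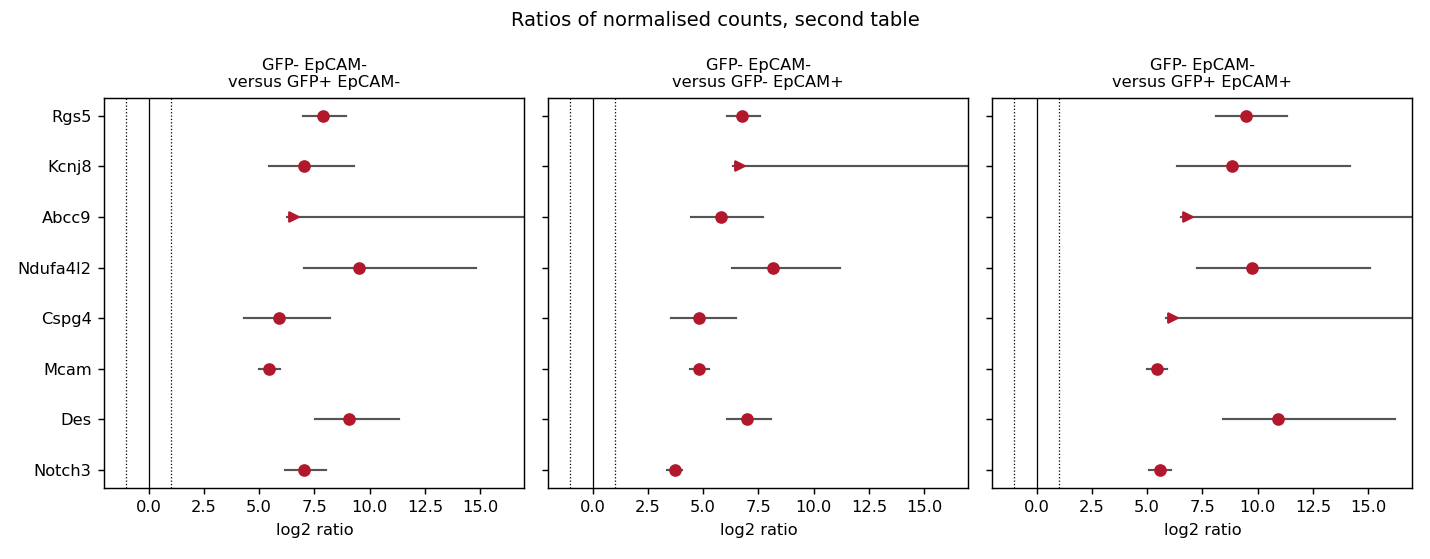
Log2 ratio of each pericyte gene in GFP- EpCAM- relative to GFP+ EpCAM-, GFP- EpCAM+ and GFP+ EpCAM+, with exact 95% counting intervals; triangles are bounds against a library at 0 counts, filled symbols are called and dotted lines mark 2-fold. All 24 ratios are called higher in GFP- EpCAM-, with Notch3 nearest to 1 against GFP- EpCAM+.

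Other mural genes followed the 8 in this table. Of 18 further mural genes with enough counts, 16 were called higher in GFP- EpCAM- than in GFP+ EpCAM- and 15 than in GFP- EpCAM+, and none was called lower in either. Pdgfrb, the receptor for PDGF-B, was 55.0-fold higher (33.0 to 98.9) than in GFP+ EpCAM- and 324-fold higher (89.2 to 2681) than in GFP- EpCAM+. Cox4i2, which encodes a subunit of cytochrome oxidase, stood at 113 CPM in GFP- EpCAM- and at 0 in GFP+ EpCAM-, at least 78.7-fold higher, and Vtn, which encodes vitronectin, was at least 84.1-fold higher. Gjc1 and Itga7 met no call against GFP+ EpCAM-, at 2.24 (1.62 to 3.12) and 2.10 (1.66 to 2.66). Of 9 contractile genes 8 were called higher than in GFP+ EpCAM-, among them the smooth muscle myosin Myh11, 521-fold (92.8 to 20626), the light chain Myl9, 244-fold (112 to 666), and Tagln, 144-fold (78.1 to 302), and Smtn stood at a ratio of 0.545 (0.461 to 0.643). Markers of other stromal cells moved with these genes. All 17 endothelial markers were called higher in GFP- EpCAM- than in GFP+ EpCAM-, with summed levels of 12950.3 CPM and 332 CPM, as were 7 of 8 fibroblast markers (1 lower), 6 of 8 skeletal muscle markers (1 lower) and, although the cells were sorted as CD45-, 8 of 8 leukocyte markers. Pdgfra was the fibroblast marker called lower, on 2 counts in the GFP- EpCAM- library and 71 in the GFP+ EpCAM- library. Their part in the levels of the 8 genes was not tested.

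The ligand and receptor genes that link pericytes to endothelium were read in the same comparison. Of the 5 PDGF genes with enough counts, Pdgfrb alone was called higher in GFP- EpCAM- than in GFP+ EpCAM-. The ligand gene Pdgfb stood at 127 CPM in GFP- EpCAM- and 82.2 CPM in GFP+ EpCAM-, a ratio of 1.54 (1.24 to 1.92), and Pdgfa at a ratio of 0.904 (0.801 to 1.02). Pdgfc and Pdgfra were called lower, 7.56-fold (3.84 to 16.97) and 22.0-fold (5.86 to 185). The angiopoietin receptor genes Tek and Tie1 were 120-fold (32.5 to 997) and 57.0-fold (35.8 to 96.9) higher. Of 12 Notch pathway genes other than Notch3, 7 were called higher and none lower. They include the endothelial receptor Notch4, 50.7-fold higher (25.4 to 119), the ligand Dll4, 11.3-fold (7.44 to 17.7), and the targets Hey1, 123-fold (21.4 to 4916), and Nrarp, 5.04-fold (3.87 to 6.63). Hes1, a target in many cell types, met no call at 1.63 (1.42 to 1.88).

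Among the 3 libraries outside GFP- EpCAM-, Notch3 and Mcam carried most of the remaining counts. Notch3 stood at 52.6 CPM (42.1 to 65.0) in GFP- EpCAM+, 5.29 (2.64 to 9.46) in GFP+ EpCAM- and 14.5 (10.2 to 20.1) in GFP+ EpCAM+. Its 3 intervals did not overlap. Mcam stood at 28.8 (21.1 to 38.2), 18.7 (13.3 to 25.6) and 18.9 CPM (13.9 to 25.2) in the same order, with overlapping intervals. Between GFP- EpCAM+ and GFP+ EpCAM+, 3 of the 8 genes had enough counts, and Notch3 and Rgs5 were called higher in GFP- EpCAM+, by 3.63-fold (2.43 to 5.51) and 6.46-fold (2.11 to 26.4). Over 9241 genes 4.18% were called higher and 0.216% lower there. The call for Rgs5 rests on 17 and 4 counts and was lost when libraries were scaled to total counts, at 5.901-fold (1.92 to 24.1). Markers of several other cell types were also called higher in GFP- EpCAM+ than in GFP+ EpCAM+, and none of those named here was called lower. They were 3 of 7 endothelial markers, with summed levels of 513 and 318 CPM, 3 of 3 leukocyte markers (98.5 and 12.5 CPM), 3 of 5 fibroblast markers (139 and 38.7 CPM) and 4 of 10 epithelial markers (13837 and 7816 CPM). Their part in the calls of Notch3 and Rgs5 was not tested. Between GFP+ EpCAM- and GFP+ EpCAM+, Mcam at a ratio of 0.990 (0.630 to 1.55) and Notch3 at 0.364 (0.167 to 0.732) were the 2 genes with enough counts, and neither was called. Over 9100 genes 0.396% were called higher and 0.736% lower.

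In the first table the 8 genes did not move as a block. Between pCAF and NMF, Ndufa4l2 was called higher in pCAF, Rgs5 and Notch3 were called lower, and 5 met no call. Over 8129 genes 7.58% were called higher and 7.91% lower, and the median log2 ratio was -0.75 for the 8 genes and -0.20 for all. Rgs5 had 0 counts in pCAF, 51 in sCAF and 76 in NMF, which is 19.2 CPM in sCAF and 61.7 CPM in NMF. It was lower in pCAF than in NMF by at least 8.25-fold, with an interval limit of 6.55-fold. Notch3 stood at 15.0 CPM in pCAF and 127 CPM in NMF, 8.52-fold lower (3.83 to 23.6). Both rest on few counts in pCAF, 0 and 6. With total-count scaling the share of all calls that were higher in pCAF fell to 37.3%, against 48.9%, and the same 3 pericyte genes were called.

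Ndufa4l2 was the gene that went the other way, with 81 counts and 202 CPM (160 to 251) in pCAF against 48 counts and 39.0 CPM (28.7 to 51.7) in NMF, 5.18-fold higher (3.58 to 7.57). Among other hypoxia genes, Egln3 and Ankrd37 had 16 and 7 counts in pCAF and 1 each in NMF, under the count minimum, at ratios of 49.1 (7.63 to 2060) and 21.5 (2.761 to 969). Without that minimum both would be called higher, as were 836 of 11198 genes. Car9, with 4 and 1 counts, and Cox4i2, with 0 and 5, would not be called. Of the 7 hypoxia genes with enough counts 1 was called higher in pCAF and none lower: the glucose transporter gene Slc2a1 was 4.07-fold higher (2.65 to 6.30), while Vegfa and Bnip3 stood at 2.31 (1.84 to 2.89) and 2.26 (1.34 to 3.79) and Adm and Ndrg1 at 0.738 (0.504 to 1.06) and 0.798 (0.598 to 1.05). Des stood at 137 CPM in pCAF and 64.1 CPM in NMF, a ratio of 2.14 (1.49 to 3.05) whose interval lay above 1 without clearing 2-fold. Of 6 markers of skeletal muscle, which also expresses Des, none was called higher and 1 lower, with summed levels of 74.8 CPM in pCAF and 240.3 CPM in NMF. Ckm, Myh4, Tnnc2, Pvalb, Myod1, Myog and Pax7 had 0 counts in pCAF. In NMF Myod1 and Myog were at 0 too, and Myh4, Pvalb and Pax7 had 6, 4 and 3 counts. Acta1 had 16 counts in pCAF and 90 in NMF, a ratio of 0.546 (0.299 to 0.936) with no call. Tnnt3 and Tnni2 had 6 counts each in pCAF. The part of muscle in the ratio of Des was not tested. Cspg4 stood at 62.3 CPM in pCAF and 37.3 CPM in NMF, a ratio of 1.67 (0.983 to 2.77). Mcam had 1 count in pCAF against 19 in NMF, a ratio of 0.162 (0.00389 to 1.02).

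Neither channel gene met a call between pCAF and NMF. Kcnj8 had 35 counts in pCAF, 15 in sCAF and 101 in NMF, and Abcc9 had 5, 24 and 46. In CPM, Kcnj8 stood at 87.2 in pCAF and 82.0 in NMF, a ratio of 1.06 (0.703 to 1.58) whose direction turned when libraries were scaled to total counts. Abcc9 stood at 12.5 in pCAF and 37.3 in NMF, a ratio of 0.334 (0.103 to 0.837) that met no call. The intervals of the 2 ratios overlapped, and the difference between them was not tested.

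The make-up of the pericyte counts was also set side by side for pCAF and NMF. The 8 genes together took 0.0477% (0.0414 to 0.0546) of the counts in pCAF, 0.0128% (0.0114 to 0.0142) in sCAF and 0.0493% (0.0453 to 0.0535) in NMF, so the summed share in pCAF and NMF overlapped within counting error. Of the 208 such counts in pCAF, Ndufa4l2 made up 38.9%, Des 26.4% and Rgs5 0%, whereas of the 572 in NMF they made up 8.39%, 13.8% and 13.3%. Abcc9 made up 2.40% (0.785 to 5.52) in pCAF and 8.04% (5.95 to 10.6) in NMF, and Notch3 2.88% and 27.4%. These shares are parts of a fixed whole, so a larger share of Ndufa4l2 lowers those of the other genes. As ratios, Des and Abcc9 met no call between these libraries.

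**Figure D3:**
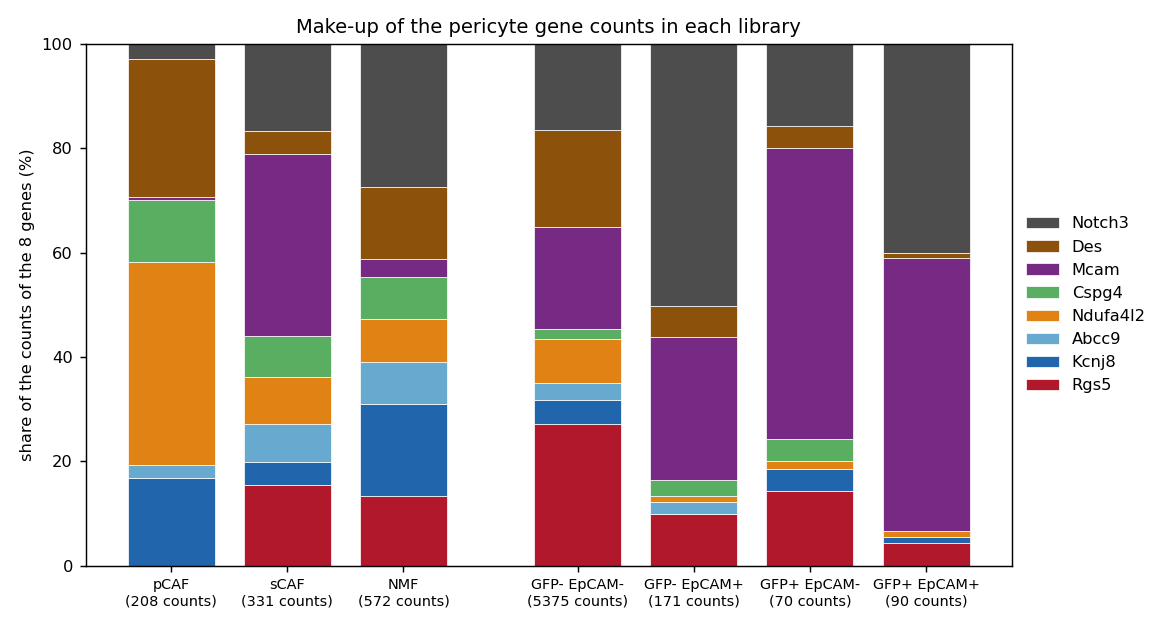
Share of each gene among the counts of the 8 pericyte genes in each library, in percent, with the number of such counts under each bar. Ndufa4l2 and Des make up most of the bar of pCAF, in which Rgs5 is absent, and Mcam and Notch3 make up most of those of GFP- EpCAM+, GFP+ EpCAM- and GFP+ EpCAM+.

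Further mural and contractile genes were split in pCAF as well. Of 14 other mural genes with enough counts 1 was called higher than in NMF, the transcription factor gene Foxs1 at 6.14-fold (2.48 to 16.6), and 4 were called lower. No count of the gap junction gene Gjc1 was found in pCAF, a ratio at least 3.15-fold lower (interval limit 2.40). Art3 and Enpep were 6.51-fold (2.45 to 24.5) and 6.11-fold (2.29 to 23.0) lower, and Steap4 3.83-fold lower (2.48 to 6.23). Pdgfrb met no call at 0.725 (0.516 to 1.00), nor did Anpep at 0.972 (0.739 to 1.26). Of 8 contractile genes 4 were called higher in pCAF, among them Actg2 at 24.6-fold (11.2 to 63.9) and Cnn1 at 18.4-fold (6.33 to 73.1), and 1 lower, Myh11. Endothelial markers were lower in pCAF, 16 of 17, with summed levels of 292 CPM in pCAF and 3913 CPM in NMF and 7 at 0 counts in pCAF. Fibroblast markers stood at 65474 CPM in pCAF and 42131 CPM in NMF, with 2 of 10 called higher and 1 lower. Those called higher include Pdpn, the gene of podoplanin, for which pCAF was sorted. Schwann markers, a list of peripheral glia, stood at 47.4 CPM in pCAF and 1132.5 CPM in NMF, with 5 of 6 called lower, and adipocyte markers at 2.49 and 2160.3 CPM, with 4 of 5 called lower. The part of these cells in the ratios of the 8 genes was not tested.

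Several ligand and receptor genes of the PDGF, Tie and Notch lists were also called lower in pCAF than in NMF. Pdgfb was at 0 in pCAF and at 81 counts in NMF, lower by at least 8.79-fold (interval limit 6.99). Tie1 was at 0 and 137 counts, lower by at least 14.9-fold (interval limit 11.9). Of 9 Notch pathway genes other than Notch3, 4 were called lower and none higher. Notch4 and Dll4, both at 0 in pCAF, were lower by at least 12.05-fold (interval limit 9.64) and 8.58-fold (interval limit 6.81). Notch1 was 5.21-fold lower (2.31 to 14.6) and Jag2 12.7-fold lower (2.15 to 514). Jag1 met no call, at 3.79 (1.91 to 7.66).

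Relative to NMF, the library labelled sCAF had 7 of the 8 genes called lower and none higher. Over 9815 genes 17.3% were called lower and 15.9% higher, and the median log2 ratio was -1.99 for the 8 genes and 0.17 for all. Kcnj8 stood at 5.65 CPM in sCAF and 82.0 CPM in NMF, 14.5-fold lower (8.39 to 26.9), and Des at 5.65 CPM and 64.1 CPM, 11.3-fold lower (6.48 to 21.2). Abcc9 was 4.13-fold lower (2.47 to 7.07), so both channel genes were called, and Cspg4 3.81-fold lower (2.31 to 6.42). Notch3 was 6.15-fold lower (4.498 to 8.52), and Rgs5 3.21-fold lower (2.22 to 4.67). Ndufa4l2 stood at 11.3 CPM in sCAF and 39.0 CPM in NMF, 3.45-fold lower (2.14 to 5.64), while 6 of 11 other hypoxia genes were called higher in sCAF and 1 lower, with Car9 at 102 CPM in sCAF and 0.812 CPM in NMF. Mcam was the gene that met no call, with 115 counts in sCAF and 19 in NMF, 43.3 and 15.4 CPM, a ratio of 2.81 (1.72 to 4.84). Of 13 other mural genes 8 were called lower and none higher, Pdgfrb 9.12-fold (6.61 to 12.8) among them. Endothelial markers were called lower in 14 of 17 cases, with summed levels of 918 CPM in sCAF and 3913 CPM in NMF, and epithelial markers stood at 4606 CPM in sCAF and 198 CPM in NMF. Of 6 skeletal muscle markers 4 were called lower and 1 higher, with summed levels of 241.5 CPM in sCAF and 240.3 CPM in NMF. Tnni2 alone gave 569 of the 641 counts of that sum in sCAF, against 28 of 296 in NMF. Only 4 of the 12 markers had counts in sCAF. Of 7 contractile genes 4 were called lower, as were all 6 Schwann and all 5 adipocyte markers with enough counts. The part of these cells in the ratios, that of Des included, was not tested.

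Between pCAF and sCAF the 8 genes were called in both directions. Kcnj8, Ndufa4l2, Cspg4 and Des were called higher in pCAF, Rgs5 and Mcam lower, and Abcc9 and Notch3 met no call. Over 8915 genes 11.5% were called higher and 11.2% lower, with a median log2 ratio of 1.57 for the 8 genes and -0.44 for all. Des was 24.3-fold higher in pCAF (13.5 to 46.2), Ndufa4l2 17.9-fold (11.6 to 28.1), Kcnj8 15.4-fold (8.22 to 30.4) and Cspg4 6.36-fold (3.52 to 11.5). Mcam, with 1 count in pCAF and 115 in sCAF, was 17.4-fold lower (3.06 to 692). Rgs5, at 0 in pCAF and 51 counts in sCAF, was lower by at least 2.57-fold, with an interval limit of 2.01-fold. That call was lost with DESeq2 size factors. Abcc9 stood at 12.5 CPM in pCAF and 9.04 CPM in sCAF, and Notch3 at 15.0 and 20.7 CPM, with intervals that overlapped. As with Rgs5 and Mcam, 8 of 14 endothelial markers were called lower in pCAF and none higher, and so were 7 of 9 epithelial markers, with summed levels of 120 CPM in pCAF and 4606 CPM in sCAF. As with the 4 higher genes, all 10 fibroblast markers were called higher, 7 of 10 other mural genes were (1 lower), and 6 of 8 contractile genes were (none lower). The fibroblast markers include Pdpn, the gene of podoplanin, on which pCAF and sCAF were split. The part of the cells marked by these lists was not tested. The 3 comparisons of this table share their libraries, so their counts are not independent of one another.

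**Figure D4:**
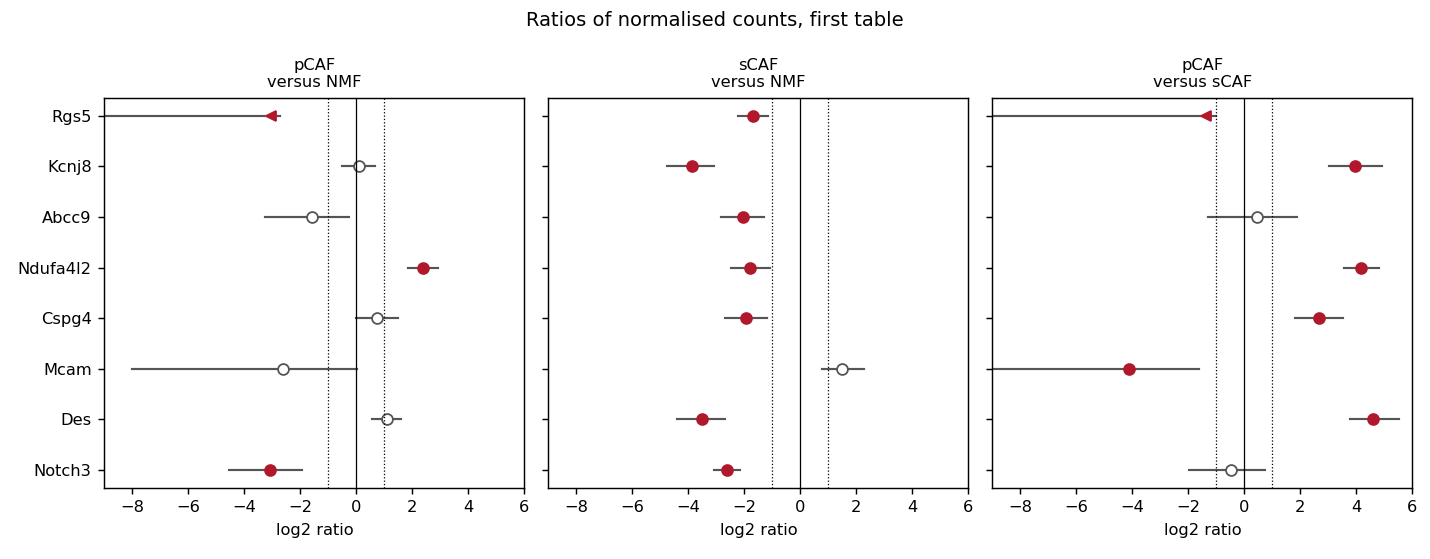
Log2 ratio of each pericyte gene for pCAF relative to NMF, sCAF relative to NMF and pCAF relative to sCAF, with exact 95% counting intervals; triangles are bounds against a library at 0 counts, filled symbols are called, open circles are not, and dotted lines mark 2-fold. Ndufa4l2 is called higher and Rgs5 and Notch3 lower in pCAF than in NMF, and 7 of 8 genes are called lower in sCAF than in NMF.

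The genes whose levels ran closest to each of the 8 over the 7 libraries were found by the root mean square difference of log2(CPM + 2), centred within each table, among 9208 other genes. For Rgs5 they were Icam2 at 0.31, Fam167b at 0.37, Cldn5 at 0.39, Cd93 at 0.43 and Gimap6 at 0.45, of which Cldn5 is on the list of endothelial markers. Rgs5 lay farther from every other pericyte gene, the nearest being Mcam at 1.24. For Kcnj8 they were Pdgfrb at 0.36, Dchs1 at 0.41, Rem1 at 0.44, Unc45b at 0.45 and the amine oxidase gene Aoc3 at 0.48. Of these, Pdgfrb and Aoc3 are on the list of other mural genes. Abcc9 ran closest to Mylk, the myosin light chain kinase gene, at 0.20, and lay 1.01 from its channel partner Kcnj8. After Mylk came Vwa1 at 0.29, Atp1b2 at 0.38, the endothelial marker Erg at 0.40 and Rnf125 at 0.43. Ndufa4l2 and Des both had the contractile gene Myl9 among their nearest 5, at 0.52 and 0.42, and were the closest pair of the 8, at 0.59. The others nearest to Ndufa4l2 were Ppic at 0.58, S1pr3 at 0.61, Lrrc32 at 0.63 and Dpysl3 at 0.67. Des ran closest to Col15a1 at 0.39, with Sparcl1 at 0.47, Ppic at 0.53 and Car4 at 0.60 after Myl9. The nearest to Mcam were Tacr1 at 0.43, Apold1 at 0.44, the mural gene Higd1b at 0.52, Il2rg at 0.63 and Ppp1r14a at 0.75. For Cspg4 they were Tmem88 at 0.23, Msrb3 at 0.30, Gngt2 at 0.37, and Hoxb7 and Plekho1 at 0.38. For Notch3 they were Hcls1 at 0.50, Hopx and Ehd3 at 0.52, Slc11a1 at 0.53 and Rnf125 at 0.54. A cell type is named here only for genes on the marker lists, and the other near genes were not assigned to any. With 7 libraries from 2 tables these distances describe the libraries and carry no p-value.

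**Figure D5:**
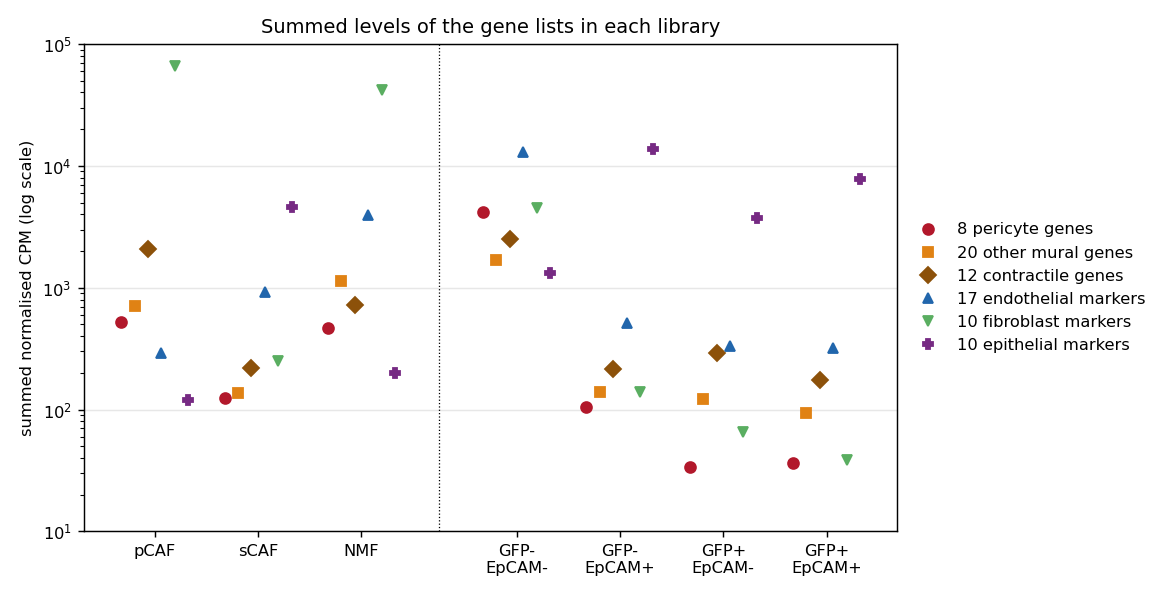
Summed level of each gene list in each library, in normalised CPM on a log axis, with the first table left of the dotted line and the second right of it; 10 of the 12 contractile genes are listed in the second table. Pericyte genes and endothelial markers are both highest in GFP- EpCAM- within the second table, and pCAF joins a summed pericyte level of 519 CPM to an endothelial level of 292 CPM, against 464 and 3913 CPM in NMF.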

How the data were processed

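Each deposited table holds raw read counts by gene symbol, all of them whole numbers. The authors list STAR, HTSeq, cutadapt, bcl2fastq, DESeq2 and the mm10 build, per the submitters' processing notes. On what each tool did, its version, strand handling and any collapsing by the molecular identifier of the second read, nothing was given in the sources used here. Counts may therefore hold amplification duplicates. Totals and ratios omit rows named as dates, 27 in the first table and 21 in the second, which held 0.152% to 0.198% of the counts.

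Ratios were scaled by TMM library sizes within each table (edgeR 4.0.16, R 4.3.3), with the exact 95% Clopper-Pearson interval of the conditional binomial, and levels were given exact Poisson intervals (scipy 1.17.1, Python 3.11.15). The method was tested on simulated data with counting error alone, which is the error its intervals assume. That test does not cover amplification duplicates, scaling or spread between mice. No ratio is reported where both libraries had 3 counts or fewer. The members and the 16 other gene lists were chosen with earlier results of these data known, and the members were left out of the other lists. Named genes are the 8 members; of a list described, up to 4 with the most counts and up to 2 with the largest ratio each way; defining markers at 0; and the 5 genes nearest to each member. Other genes singled out were chosen after their values were seen. A 4-fold rule, total counts, size factors of DESeq2 1.42.0 and the absence of a count filter were tried as alternatives. Positions come from GENCODE M21 (GRCm38).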

Additional observations from a re-analysis of the deposited data

Results flagged for a closer look

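The ratio of Notch3 in EpCAM- over EpCAM+ cells lay above 1 in GFP- cells and below 1 in GFP+ cells. The ratio was 13.1 (10.5 to 16.5) in GFP- cells, with 885 and 86 counts, and 0.364 (0.167 to 0.732) in GFP+ cells, with 11 and 36 counts, where it met no call. With 1 library per group the difference between the 2 ratios was not tested.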

How the results depend on the processing

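Of the 53 ratios of single pericyte genes with enough counts, each stayed inside its own counting interval under DESeq2 size factors and total counts, and no called ratio changed direction. The count filter and the 4-fold rule change the calls but not the ratios. With DESeq2 size factors, 1 pericyte gene in place of 2 was called lower in pCAF than in sCAF. Rgs5 met no call there, at a bound of 0.431 with an interval that reached 0.550. With total counts, 1 in place of 2 was called higher in GFP- EpCAM+ than in GFP+ EpCAM+. Under the 4-fold rule pCAF against NMF had 0 called higher and 1 called lower, sCAF against NMF 3 lower, pCAF against sCAF 0 lower, and 0 were higher in GFP- EpCAM+ than in GFP+ EpCAM+, while all 8 stayed higher in GFP- EpCAM- than in each of the other 3 libraries. With no count filter Des, at 10 and 1 counts, was also called higher in GFP- EpCAM+ than in GFP+ EpCAM+. Scaling factors without sCAF, an alternative chosen after the data were seen, left the calls of pCAF against NMF at 1 higher and 2 lower. With total counts the all-gene median of log2 ratios was -0.41 and not -0.20 for pCAF over NMF, -0.60 and not -0.44 for pCAF over sCAF, and -0.14 and not -0.01 for GFP- EpCAM+ over GFP+ EpCAM+. Over all genes, no count filter gave 1673 in place of 1023 higher in pCAF than in sCAF (62.6% of calls higher in place of 50.5%) and 600 in place of 386 higher in GFP- EpCAM+ than in GFP+ EpCAM+, where total counts gave 32 in place of 20 lower. The 4-fold rule gave 232 in place of 616 higher and 173 in place of 643 lower for pCAF over NMF, 566 in place of 1561 higher for sCAF over NMF, 242 in place of 1001 lower for pCAF over sCAF, and 235 in place of 386 higher and 1 in place of 20 lower for GFP- EpCAM+ over GFP+ EpCAM+. For GFP- EpCAM- it gave 97 in place of 530 lower against GFP+ EpCAM-, 702 in place of 1205 higher and 214 in place of 698 lower against GFP- EpCAM+, and 958 in place of 1452 higher and 132 in place of 624 lower against GFP+ EpCAM+. For GFP+ EpCAM- over GFP+ EpCAM+ it gave 8 in place of 36 higher and 20 in place of 67 lower. No paired analysis was possible because each group is 1 library. At the depth of pCAF a gene below 7.48 CPM could go unseen.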

Other observations

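Of the pancreatic-type subunits of the ATP-sensitive potassium channel, Abcc8 did not follow the vascular pair, and Kcnj11 had too few counts for a ratio. Abcc8 had 2 counts and Kcnj11 0 in GFP- EpCAM-, against 36 and 3 in GFP- EpCAM+, where Kcnj8 had 0 and Abcc9 4. Both were at 0 in the GFP+ libraries. Abcc8 stood at 1.55 CPM in GFP- EpCAM- and 22.0 CPM in GFP- EpCAM+, a ratio of 0.0705 (0.00823 to 0.274), called lower.

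Other genes of the RGS family moved in both directions. In pCAF, where Rgs5 had 0 counts, Rgs16 stood at 244 CPM, against 15.4 CPM in NMF, 15.8-fold higher (9.62 to 27.4), and Rgs4 had 11 counts, against 12 in NMF, at a ratio of 2.81 (1.13 to 6.97) with no call. Rgs3 was called lower in pCAF, with 1 count against 45 in NMF. Of 6 such genes with enough counts 1 was called higher and 1 lower. Relative to GFP+ EpCAM-, 4 of 8 were called higher in GFP- EpCAM- and 1 lower. The leukocyte gene Rgs1 gave 269 and 0 counts in these libraries, Rgs4 gave 122 and 0, and Rgs11 gave 3 and 96.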
